A study of Schizosaccharomyces pombe with 6 samples.

Results

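Hap2-only regions at coding gene promoters are stretches of the fission yeast genome where both Hap2-GFP ChIP-seq replicates have a peak, neither Arp5-3HA replicate has one, and the centre falls at the promoter of a protein-coding gene, no farther than 500 bp before or 100 bp beyond its annotated start. The regions were chosen by the peaks themselves, after all peaks of the 4 lists on chromosomes I, II and III that overlapped by at least 1 bp had been merged. Of 7509 merged regions, 747 (9.95%) had peaks of both Hap2 lists and of neither Arp5 list, and 414 of these (5.51% of all merged regions) were centred at a coding promoter. Presence of Hap2 and absence of Arp5 are therefore what selected the regions, and are given here as a description.

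The cells were one Schizosaccharomyces pombe strain that carries Hap2-GFP and Arp5-3HA together and was grown in rich medium (YES). ChIP used anti-GFP for Hap2-GFP and anti-HA for Arp5-3HA, with 2 replicates of either protein. Both tags were thus present in every culture, and whether replicates came from separate cultures is not stated. The 2 input samples were not used here, no untagged strain was analysed, and the read depth behind each peak is unknown.

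Ino80C is a chromatin remodeling complex that slides nucleosomes and exchanges histones, using an ATPase of the same name as its motor. Arp5 is an actin-related protein of the canonical complex, needed in other species for nucleosome sliding. Hap2 is a small auxiliary subunit of the fission yeast complex and is not related to the CCAAT-binding protein called Hap2 in budding yeast, whose fission yeast counterpart is Php2. In yeasts, remodelers of this family are known to act at the nucleosomes that flank promoters, where transcription starts from a nucleosome-depleted stretch.

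The promoter sequences beneath the highest-ranked regions are printed first, so that the places behind the values can be read. Regions are ranked by score percentile, taking the lower value of the 2 Hap2 lists, a percentile being the share of peaks of a list with a score at or below its own. All sequences are from the RefSeq assembly ASM294v3 and run 5′ to 3′ on the strand of the named gene, centred on the mean of both Hap2 summits, with bases in the untranslated part of a coding gene cut away. Capitals mark a match to one of the 10 motifs searched, of which 3 occur here. These are the TATA box TATAAA, an unbroken poly(dA:dT) run of 8 bases, and TGACGT, the core of the cAMP response element (CRE). The window of car2, the region of highest rank, lies wholly in the untranslated part of a neighbouring gene and is not shown.
yar1 (chromosome II, 1907754 to 1907856, minus strand): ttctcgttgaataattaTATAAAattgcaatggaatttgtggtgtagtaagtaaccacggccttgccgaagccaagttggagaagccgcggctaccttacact
ada2 (chromosome III, 916836 to 916956, minus strand): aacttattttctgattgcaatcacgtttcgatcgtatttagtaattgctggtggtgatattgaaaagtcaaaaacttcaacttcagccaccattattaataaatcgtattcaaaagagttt
sap145 (chromosome I, 4806426 to 4806546, minus strand): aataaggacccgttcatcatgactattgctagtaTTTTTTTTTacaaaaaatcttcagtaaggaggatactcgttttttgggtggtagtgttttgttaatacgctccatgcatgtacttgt
SPAC1399.01C (chromosome I, 1850771 to 1850891, plus strand): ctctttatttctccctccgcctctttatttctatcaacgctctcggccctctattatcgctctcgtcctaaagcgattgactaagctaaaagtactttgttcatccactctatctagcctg
uck2 (chromosome I, 1840276 to 1840396, plus strand): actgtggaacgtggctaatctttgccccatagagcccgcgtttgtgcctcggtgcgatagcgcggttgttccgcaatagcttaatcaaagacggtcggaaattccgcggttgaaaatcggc
SPAC22A12.17C (chromosome I, 1189471 to 1189591, minus strand): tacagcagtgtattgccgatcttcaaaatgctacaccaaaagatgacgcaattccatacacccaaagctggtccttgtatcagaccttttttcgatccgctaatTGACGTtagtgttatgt
yhb1 (chromosome I, 5517506 to 5517626, plus strand): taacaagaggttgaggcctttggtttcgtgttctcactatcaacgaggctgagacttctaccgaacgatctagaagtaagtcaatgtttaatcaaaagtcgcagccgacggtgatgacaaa
The 7 stretches have no common composition, with a GC content between 30.6% at ada2 and 53.7% at uck2.

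Across the 414 regions, the score of the highest Hap2 peak had a median of 30 in replicate 1 (range 18 to 149) and 32 in replicate 2 (range 17 to 145). The medians of all peaks were 28 and 29 in these lists, with highest scores of 551 and 584. Scores are the deposited values on a scale that is not stated, and serve only as ranks within a list. As percentiles of their lists, the regions had a median of 59.8 in replicate 1 and 63.5 in replicate 2, and 41 and 46 of the 414 were in the upper 10% of these lists. Their rank, the lower value of each pair, had a median of 48.0 (interquartile range 26.2 to 71.0). The 166 promoter regions with peaks of both Hap2 lists and at least 1 Arp5 list had a median rank of 69.0, and the 333 Hap2-only regions away from promoters one of 48.8. The Hap2-only promoter regions had a median length of 320 bp (range 160 to 1450 bp), against 485 bp where an Arp5 peak was present. It was 360 bp for Hap2-only regions away from promoters and 190 bp for promoter regions with a single Hap2 list and no Arp5 list. The highest Hap2 peaks of members had median lengths of 250 and 270 bp in replicates 1 and 2, against 240 bp for all peaks of either list. Length and the rule are not independent, since regions that meet an Arp5 peak are merged with it.

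**Figure D1:**
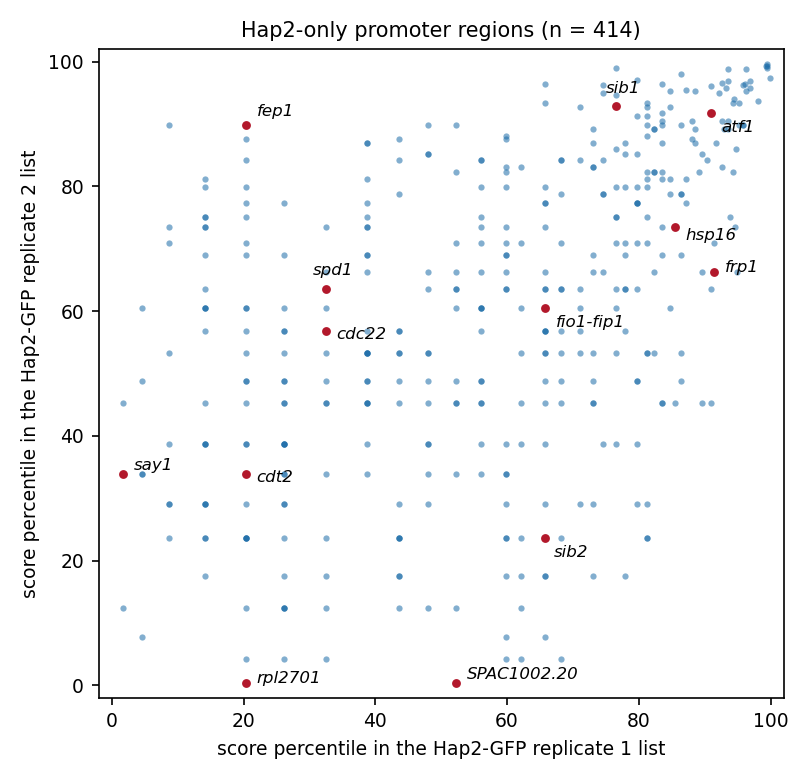
Score percentile of each of the 414 Hap2-only promoter regions in the list of Hap2-GFP replicate 1 (x axis) and replicate 2 (y axis). Each point is 1 region, and red points are regions named in the text. Replicates differed widely at some regions, such as fep1 (20.4 and 89.9), and the regions of highest rank lie in the upper right corner because both percentiles enter the rank.

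The regions of highest rank have high scores in both replicates by the way they were ranked. The car2 region (chromosome II, 3810771 to 3811160), upstream of the gene for ornithine transaminase of arginine breakdown, scored 125 and 145 in replicates 1 and 2. The region between yar1 and nop8, a divergent pair of ribosome biogenesis genes, scored 129 and 128. The ada2 region, at the gene for a subunit of the SAGA histone acetyltransferase complex, scored 108 and 122, and that of sap145, which encodes a U2 snRNP splicing protein, 113 and 109. These 4 regions were the only ones above the 98th percentile in both lists.

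The next regions lay mostly at genes of metabolism and transport. SPAC1399.01C, annotated as a transporter, scored 149 and 81, and uck2, annotated as a uracil phosphoribosyltransferase, 75 and 77. The putative dehydrogenase gene SPAC22A12.17C scored 72 and 101. The gene for the nitric oxide dioxygenase Yhb1 scored 71 and 74, with its nearest Arp5 peak 24320 bp away. The glutamine synthetase gene gln1 scored 69 and 72. Further members of the highest 15 were knh3 (75 and 69), the pre-ribosomal factor gene loc1 (72 and 67), the transcription factor genes fil1 (62 and 62) and hsr1 (87 and 61), the aquaporin family gene SPAC977.17 (59 and 100) and gti1 (59 and 77), whose product induces gluconate uptake. At the other end, the sterol deacetylase gene say1 scored 18 and 25, SPAC1002.20 28 and 17, and the ribosomal protein gene rpl2701 22 and 17. The lowest score in either Hap2 list is 17, so that each of these regions is near the bottom of 1 list, while SPAC1002.20 is at the median of the other.

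The distance between the highest Hap2 summits of both replicates had a median of 60 bp (interquartile range 30 to 100 bp) and was at most 100 bp in 318 of 414 regions (76.8%). The median was also 60 bp in regions with Hap2 and Arp5, and the rule limits the distance, since both peaks must lie in one merged region. Most members held a single peak in each list, 398 in replicate 1 and 400 in replicate 2. The greatest distance, 830 bp, was found at clr5, the gene of a silencing factor, whose region of 1450 bp is also the longest. It was followed in length by the region of SPCC569.05C, a putative spermidine transporter gene (1190 bp), and the region shared by SPBC1105.13C and the stress-related transcription factor gene rsv2 (1070 bp).

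The centres of the Hap2-only regions were concentrated just upstream of the gene start. Of 414, 114 (27.5%, 95% Wilson interval 23.5 to 32.0%) lay 200 to 100 bp upstream and 119 (28.7%, 24.6 to 33.3%) within the last 100 bp before the start, with 36 in the first 100 bp downstream. The median centre was at -129 bp. The 166 regions with Hap2 and Arp5 had 27 and 30 in those 2 bins, 31 downstream and a median of -178 bp, but they were not of one kind. The 88 with a single Arp5 list had 21.6% and 23.9% in those bins and a median of -136.5 bp, and the 78 with all 4 lists 10.3% and 11.5% and a median of -271 bp. The 498 promoter regions with a single Hap2 list and no Arp5 list also lay mostly before the start, with 24.5% and 33.9% in those bins, so that this position was not particular to the members. The rule admitted all these sets by the same window. A centre is the midpoint of the merged region, so an Arp5 peak that joins a region can move it. Median lengths were 320 bp for members, 415 bp with a single Arp5 list and 705 bp with all 4 lists. Position and the presence of an Arp5 peak are thus not independent. Intervals cover counting error only, since regions are not replicates of an experiment, and the difference between the sets was not tested. With 2 lists against 2, an exact permutation test over lists could not give a p below 0.333.

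**Figure D2:**
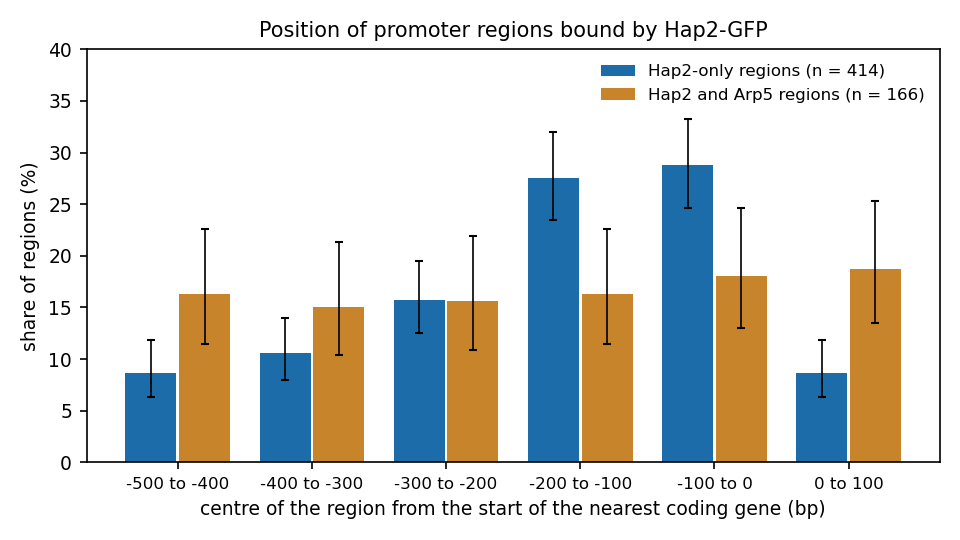
Share of regions (y axis, percent) by distance of the region's centre from the nearest coding gene start (x axis, 100 bp bins, negative upstream) for 414 Hap2-only regions and 166 regions with Hap2 and Arp5. Bars are shares with 95% Wilson intervals. Centres of regions with both proteins are taken after merging with the Arp5 peaks, which can move them. Hap2-only regions reach 27.5% and 28.7% in the 2 bins before the start, while the shares of regions with both proteins, which pool those with 1 and with 2 Arp5 lists, lie between 15.1% and 18.7%.

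The edges of the rule fell where regions continue. Just inside the upstream edge were mpc2, a mitochondrial pyruvate carrier gene (-496.5 bp), and gas1 (-495.5 bp), and just outside it were cdc25 (-502.5 bp), the gene of the mitotic inducer phosphatase, and the calcium ATPase gene pmc1 (-508.5 bp). At the downstream edge, mfs2 (99.5 bp) and inh1 (92.5 bp) were inside, and SPBC887.17 (102.5 bp) and SPAC23C11.07 (106.5 bp) outside. The absence of Arp5 has such an edge too. An Arp5 peak began directly beside the spp41 region, with 0 bp between them, and 20 bp from those of idn1, osr2, gas2 and prp39. In contrast, the region of the transcription factor gene prr1 was left out for an overlap of 10 bp. Only 10 of 414 members had an Arp5 peak within 50 bp, so that few depend on so narrow a margin.

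Arp5 peaks were nevertheless found in the neighbourhood of most members. The nearest lay a median of 620 bp from the region (interquartile range 300 to 1077.5 bp), within 500 bp in 175 of 414 (42.3%) and within 1000 bp in 299. The body of the member's gene, taken from 101 bp downstream of the start, held an Arp5 peak of at least 1 list in 306 of 414 regions (73.9%, 69.5 to 77.9%), against 59.8% of all 5113 coding genes, and of both lists in 241 (58.2%), against 37.9%. Hap2 peaks were likewise present in the body in 330 of 414 (79.7%), against 50.5% of all coding genes. Shares above those of all coding genes were not particular to the members. Promoter regions with Hap2 and Arp5 had an Arp5 peak in the body in 80.1%, of both lists in 57.2%, and a Hap2 peak in 81.9%. For promoter regions with a single Hap2 list and no Arp5 list these shares were 70.5%, 47.2% and 68.3%. Genes of members were longer, with a median of 1969 bp against 1773 bp for all coding genes, and its part in these shares was not tested. Among the 242 members with at least 500 bp to the nearest Arp5 peak, 60.3% had an Arp5 peak in the gene body. A gap of exactly 500 bp counts both here and among the 175 above. This filter also drops members whose Arp5 peak lies in the first part of the gene body. The 60.3% is therefore not comparable with the 59.8% of all coding genes, to which no such filter was applied. The remaining 108 of the 414 (26.1%) had no Arp5 peak of either list in the gene body. The genes of the 15 members of highest rank include both kinds, with Arp5 peaks of both lists in the body of ada2, sap145, gln1, fil1 and hsr1, and none in that of yar1, uck2, yhb1 and loc1.

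Divergent promoters were about as frequent as among promoters in general, while more members lay between tandem genes and fewer inside a coding gene. Of 414 regions, 177 (42.8%, 38.1 to 47.6%) had their centre between divergent genes, against 40.1% of points 200 bp upstream of all coding genes. Another 163 (39.4%, 34.8 to 44.2%) lay between tandem genes, against 31.4% of these points, 72 (17.4%, 14.0 to 21.3%) inside another or the same coding gene, against 27.9%, and 2 between convergent genes. Regions with Hap2 and Arp5 were divergent in 24.7% and inside a coding gene in 36.1%. These shares were 31.8% and 28.4% with a single Arp5 list, and 16.7% and 44.9% with all 4 lists. Promoter regions with a single Hap2 list and no Arp5 list were divergent in 40.2%, tandem in 35.9% and inside a coding gene in 23.7%. The members' centres had a median of -129 bp, nearer the start than the points, and the part of this in the shares was not tested. The genes of members had more room upstream, a median of 808 bp to the next coding gene against 461 bp for all coding genes, and a longer stretch between gene start and coding start (132 bp against 80 bp).

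Since a promoter window can belong to a pair of genes, the 414 regions fell in the windows of 449 coding genes, 8.78% of 5113, with 38 regions in the windows of 2 genes and 3 genes with 2 regions. In 15 intergenic spaces 2 separate members lay side by side. Thus gas1 and bgs3, both of cell wall glucan synthesis, shared one divergent space with a region at each end, and sib1 and sib2 another. So did loc1 with gti1 and sap145 with the phospholipase C gene plc1. Counts of genes in lists therefore do not count independent regions. The number of members rested on the requirement for both Hap2 lists, with 754 regions at 796 genes without Hap2-GFP replicate 1 and 643 regions at 675 genes without replicate 2. It was 450 and 474 without Arp5-3HA replicates 1 and 2.

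Among the gene lists, the highest shares with a Hap2-only region were those of iron-regulated and stress genes. The counts below are read against the 8.78% of all coding genes, and no list was tested. Lists were drawn by gene names or by words in the annotated product. A list therefore need not hold every gene of its kind, nor only such genes. For regions with Hap2 and Arp5 the share of all coding genes was 3.46% (177 genes), so that a count of 0 in a short list is near that background.

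Iron acquisition gave the highest share. In fission yeast this group is repressed by the GATA factor Fep1 when iron is plentiful. Of 10 iron-regulated genes, 6 had a Hap2-only region. They are sib1 and sib2, for synthesis of the siderophore ferrichrome, the ferric reductase gene frp1, the oxidase and permease genes fio1 and fip1, and fep1 itself. The sib1 region scored 37 and 59 and the adjacent sib2 region 32 and 23, with 80 bp between them. One region of 710 bp covered the 303 bp between fio1 and fip1 and scored 32 and 31. The scores were 53 and 33 at frp1, and 22 and 52 at fep1. None of the 10 had an Arp5 peak in its promoter window. For the 6 with a region this follows largely from the rule, and the share of such windows among all coding genes is not given here. Of the other 4 genes, the siderophore transporter genes str3 and str1 had a peak of 1 Hap2 list, and str2 and php4 had none. Because fio1 and fip1 share a region, 6 genes stand for 5 regions. The count was 6 or 7 with any 1 list left out. It fell to 3 when members with an Arp5 peak less than 500 bp away were dropped or promoters were set from the coding start.

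Stress genes were next, with 6 of 14 (42.9%). These include sty1, the stress-activated MAP kinase gene (35 and 43), and atf1, for the transcription factor that this kinase activates (52 and 56). The others encode effectors, the heat shock proteins Hsp9 (47 and 48) and Hsp16 (44 and 36), the sulfiredoxin Srx1 (41 and 29) and the catalase Ctt1 (42 and 27). The glycerol phosphate dehydrogenase gene gpd1 had peaks of both Hap2 lists in its window but no member, and tps1, pcr1, pyp2, trx2 and gpx1 had no peak of any list. The count lay between 6 and 8 with any 1 list left out, and was 4 at the lowest over all alternatives. The regions of sty1 and ctt1 were lost when members with an Arp5 peak less than 500 bp away were dropped.

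The list of DNA-binding transcription factors had 9 of 35 (25.7%), led within the list by hsr1, atf1 and scr1, the glucose-responsive repressor gene (48 and 67). This list is partial, since the members fil1 and fep1 are outside it. Its share with Hap2 and Arp5, 4 of 35 (11.4%), was above the 3.46% of all coding genes. Cell wall enzymes had 8 of 33 (24.2%), with the glucanosyltransferase genes gas1 (42 and 42) and gas2 (61 and 42) and the glucan hydrolase gene bgl2 (42 and 41) highest. Membrane transporters had 39 of 190 (20.5%, 15.4 to 26.8%), the largest list in number. Their share with Hap2 and Arp5, 13 of 190 (6.84%), was also above the 3.46% of all coding genes. Among them were zrt1 for zinc (36 and 39), amt1 for ammonium (36 and 72) and put4 for proline (35 and 47). Glycolysis had 3 of 13, at pfk1 (55 and 66), pyk1 (30 and 40) and gpd3 (29 and 31), and chaperones 3 of 13, at hsp16, hsp90 (35 and 43) and ssa1 (28 and 25). Amino acid metabolism had 8 of 50 (16%), with car2 and the arginase gene car1 (42 and 52) first. The intervals of glycolysis and chaperones (both 8.18 to 50.3%) and of amino acid metabolism (8.34 to 28.5%) include the 8.78% of all coding genes. Over all alternatives, the lowest counts were 0 for glycolysis, 1 for chaperones and 4 for amino acid metabolism. They were 4 for transcription factors, 3 for cell wall enzymes and 20 for membrane transporters.

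Genes that MBF activates at the start of DNA replication had 3 of 8. These were cdc22 (24 and 30), the large subunit gene of ribonucleotide reductase, cdt2 (22 and 25), whose product directs Spd1 to degradation, and mik1, which shares its region with ssb1 (40 and 23). The 3 regions all held the MluI cell cycle box ACGCGT that MBF binds, which occurred in 16 of 414 members (3.86%). Of the other genes of this list, nrm1 had peaks of all 4 lists in its window. The cig2 window had both Hap2 lists and 1 Arp5 list, cdc18 had 1 list of each, cdt1 had 1 Hap2 list and yox1 had none. The count was 3 or 4 with any 1 list left out, and 0 with only Hap2 peaks at or above the median score of their list. The spd1 gene, for the inhibitor of ribonucleotide reductase, had a region as well (chromosome I, 5412081 to 5412580, scores 24 and 32). The ChIP primers for the 5′ part of spd1 fell in this region, while those in its coding sequence lay 75 bp outside. No other primer pair of the study that matched the genome fell in a member.

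Chromatin genes were mixed. Of SAGA, 3 of 19 genes had a region, but sgf29 (20 and 24) was far weaker than ada2, and spt20 was the remaining one. Of the Swr1 complex, which deposits H2A.Z, 2 of 10 had one, msc1 (25 and 47) and bdf1 (25 and 27). Of Ino80C genes 1 of 16 had one, ino80 itself, the ATPase gene (26 and 39). RSC and SWI/SNF genes had 2 of 18, at rsc58 and rsc1. Kinetochore genes had 2 of 28, spc7 and cnl2, and genes for CENP-A loading 1 of 11, fft3 (42 and 56). Histone genes had 0 of 11 Hap2-only regions and 5 of 11 with Hap2 and Arp5.

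Other lists had shares below that of all coding genes. The interval lay wholly below that share only for the list of mitochondrial proteins (0.534 to 6.81%), and included it for the rest. Cytosolic ribosomal protein genes had 7 of 138 (5.07%, 2.48 to 10.1%), with rps401 (27 and 27), rps7 (22 and 48) and rpl302 (22 and 26) highest in rank. Ribosome biogenesis had 3 of 86 (3.49%), of which yar1 and nop8 share the second-ranked region and imp4 is the other. Translation factors had 3 of 59, cyclins and cell cycle regulators 1 of 21 (cdr2), proteasome genes 1 of 44, and the list of mitochondrial proteins 2 of 103. That last list is partial, since the mitochondrial pyruvate carrier gene mpc2 is a member outside it. Its share is thus not that of all mitochondrial genes. Mediator (0 of 20), phosphate and thiamine regulated genes (0 of 8) and aminoacyl-tRNA synthetases (0 of 5) had none. Protein kinases (9 of 94, 9.57%), led by oca2 (58 and 69) and by srk1 (45 and 39), whose product Sty1 activates, and the meiotically upregulated mug genes (9 of 91, 9.89%) were near the 8.78% of all coding genes. The kinase list is partial too, since the member sty1 is outside it. Without Hap2-GFP replicate 1, 19 of 138 ribosomal protein genes had a region (13.8%), against 15.6% of all coding genes in that setting, and without replicate 2 there were 16 (11.6%), against 13.2%.

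**Figure D3:**
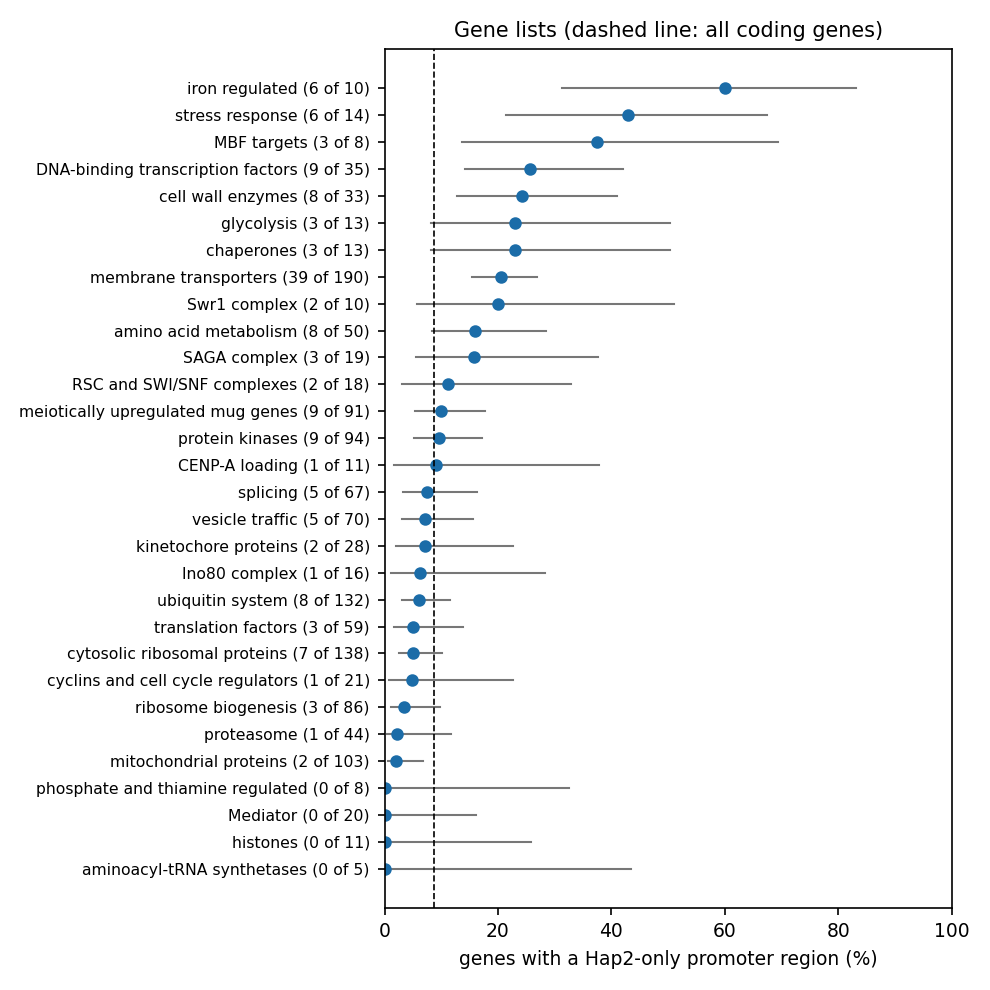
Share of genes with a Hap2-only promoter region (x axis, percent) in 30 gene lists, with the counts beside each name. Points are shares, grey lines are 95% Wilson intervals for counting error, and the dashed line is the 8.78% of all coding genes. Iron-regulated (60%) and stress response genes (42.9%) are at the top, and the intervals of many other lists cross the dashed line.

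The sequence beneath the regions was richer in GC than promoters in general. In 300 bp around the centre, GC had a median of 37.8% (interquartile range 35 to 41.3%), against 37.3% for regions with Hap2 and Arp5, 39.0% for Hap2-only regions away from promoters and 31.0% for 300 bp around points 200 bp upstream of all coding genes. TATAAA occurred in 128 of 414 windows (30.9%) on either strand, against 50.5% of all promoters, and the poly(dA:dT) run in 62 of 414, against 24.3% of all promoters. Motifs of AT alone move with GC content, and its part in these shares was not tested.

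Among motifs with mixed bases, the CRE core TGACGT, bound by Atf1 and related factors, occurred in 43 of 414 windows (10.4%, 7.80 to 13.7%). Its share was 5.42% in regions with Hap2 and Arp5, 7.51% in Hap2-only regions away from promoters and 5.24% in all promoters. TTACCC, the core of the Reb1 site, occurred in 57 (13.8%), against 8.24% of all promoters, and CCAAT, bound by the Php complex, in 208 (50.2%), against 41.5%. In regions with Hap2 and Arp5 these shares were 10.2% and 45.2%, and in Hap2-only regions away from promoters 12.3% and 43.2%. The forkhead motif GTAAACA was found in 15.9%, against 16.7%. HomolD (CAGTCACA), the element of ribosomal protein promoters, was found in 9 members (2.17%), against 1.13% of all promoters. Ribosomal protein genes among the 9 were rps401, rps7 and rpl2701, and the other 6 were not of that list. For the remaining motifs, HomolE (ACCCTACC) was in 1.21% of members and 1.43% of all promoters, and the CG-rich core GCGCGC in 1.69% and 0.802%. ACGCGT was in 3.86% and 2.41%. Both strands were searched, and none of these motifs contains another. When the 449 genes of members were read in the same window as all promoters, 200 bp upstream, the shares were nearer to the background, with TGACGT at 7.80% (5.66 to 10.6%), TTACCC at 11.6%, CCAAT at 45.0% and TATAAA at 36.1%, and a median GC of 35%. A match is a run of letters in a window and does not show that a factor was bound.

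**Figure D4:**
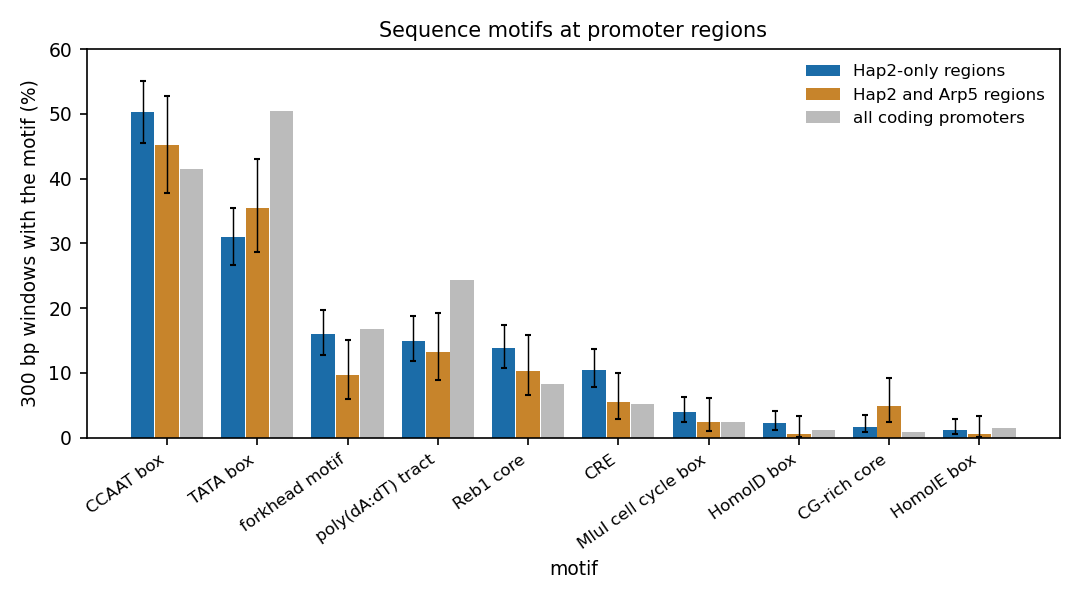
Share of 300 bp windows with each of 10 motifs (y axis, percent) in 414 Hap2-only promoter regions, 166 promoter regions with Hap2 and Arp5, and 5112 points 200 bp upstream of coding genes. Error bars are 95% Wilson intervals for counting error. TATAAA was found in 30.9% of Hap2-only regions, 35.5% of regions with Hap2 and Arp5 and 50.5% of all promoters. The CRE core was found in 10.4%, 5.42% and 5.24%.

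The sequences around motif matches are given for 3 regions named above, chosen after their values were seen, to show how the CRE core and the MluI cell cycle box sit beneath Hap2 regions of genes with a known regulator. Capitals again mark motif matches, and the strand is that of the gene, which is plus in each case.
atf1 (chromosome II, 1546138 to 1546198): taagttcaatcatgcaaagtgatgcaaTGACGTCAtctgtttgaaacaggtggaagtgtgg
spd1 (chromosome I, 5412384 to 5412442): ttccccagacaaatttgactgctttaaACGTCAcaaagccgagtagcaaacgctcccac
cdc22 (chromosome I, 4226881 to 4226941): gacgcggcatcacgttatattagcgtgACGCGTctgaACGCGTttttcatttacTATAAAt
The atf1 stretch, from -79 to -19 bp of the gene start, holds the CRE core on both strands as one palindrome, and cdc22 holds 2 MluI boxes followed by a TATA box. In the stress list only the atf1 region held the CRE core, so that the 43 members with it were mostly other genes, such as oca2, srk1 and spd1.

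Genes of other kinds overlapped 306 of 414 regions (73.9%), mostly annotated long noncoding RNAs (290, 70.0%), against 69.5% and 66.8% of 320 bp windows at all promoters. A tRNA gene was touched by 2 members (0.483%), at slm3 and mug135, near the 0.313% of all promoter windows, and by 24 of 166 regions with Hap2 and Arp5 (14.5%). Long terminal repeats, remnants of Tf retrotransposons, overlapped 37 members (8.94%, 6.55 to 12.1%), against 1 region with Hap2 and Arp5 (0.602%), 6.91% of Hap2-only regions away from promoters and 3.48% of all promoter windows. These repeats are alike in sequence, and the handling of reads that align to several copies is not stated. The repeats at msc1 and imp4 are examples among the genes named above. No member overlapped a snoRNA, snRNA or rRNA gene. By chromosome, members numbered 38.0 per Mb on I, 27.5 on II and 31.4 on III.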

How the data were processed

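ChIP-seq peak lists of Hap2-GFP and Arp5-3HA (2 replicates each, grouped by their titles) were analysed. The authors called peaks in each sample separately, with MACS2 2.1.2, BWA 0.7.17, Trimmomatic 0.36 and deepTools listed in the submitters' processing notes. Commands, thresholds and build were not given in the sources used here. A deposited peak score is a whole number on no stated scale, and read depth is unknown, so peak heights were not compared between samples. ASM294v3 coordinates were accepted because chromosome III ends where its last peak ends and Hap2 peaks lie on 55 of 56, 67 of 68 and 47 of 47 tRNA genes of chromosomes I, II and III. Peaks on other sequences (6, 8, 1 and 0) were left out.

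Peaks were merged at 1 bp overlap, and shares were given with 95% Wilson intervals, which cover counting error only. No set of regions or genes was tested. The members, the 30 gene lists and the 10 motifs were chosen with earlier results of these data known. One further motif is not reported here. Genes named are the 15 highest and 3 lowest regions, up to 3 of each list, those nearest each edge, the 3 longest and loci with ChIP primers. Others, in the lists with the highest shares and in the motif text, were named after their values were seen. Alternatives were each list left out, score thresholds, larger overlap, Hap2 peaks merged alone, Arp5 distance, other promoter windows, summits and coding starts. Merging, positions and motif counts were tested on simulated data. Python 3.11.15, numpy 2.4.6 and matplotlib 3.10.9 were used.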

Additional observations from a re-analysis of the deposited data

How the results depend on the processing

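No paired analysis was possible because the results come from no test. With each list left out in turn, the number of Hap2-only promoter regions lay between 450 and 754, and that of their genes between 488 and 796. All 414 members were met again without either Arp5 list, 410 without Hap2-GFP replicate 1 and 406 without replicate 2. With only the Hap2 peaks at or above the median score of their list there were 197 regions at 214 genes, of which 48.2% were divergent and 78.2% overlapped a gene of another kind. With at least 500 bp to the nearest Arp5 peak there were 242 regions at 262 genes, 48.3% of them divergent and 60.3% with an Arp5 peak in the gene body. This share was 66.4% when promoters were set from the coding start. A window from 250 bp upstream gave 68.8% with a gene of another kind. The other alternatives kept the 5 main values within 1.5 times or within their counting intervals. Of 530 values of single motifs and gene lists, 426 stayed within those limits and 104 moved. One of these alternatives, the fixed window for motifs, was chosen after seeing the data. The unknown depth, the missing untagged control and the choice of 2 replicates limit what absence from the Arp5 lists can show.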
